A study of Homo sapiens with 6 samples.

Results

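NUCKS1 (ENSG00000069275) was followed here through 6 long-read libraries in which C-to-U edits were read out along single RNA isoforms. The gene lies on the minus strand of chromosome 1 (hg38 chr1:205712822-205750182) and was found in the files by the GENCODE 44 gene name of each listed isoform. It is 1 gene of 7684 with a listed edit, and it is present through a single isoform, ENST00000367142, of 9831 listed isoforms. The isoform gave 1381 listed edits over the 6 libraries, at 586 distinct Cs.

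INSCRIBE labels RNA next to a chosen RNA-binding protein in fixed cells. A purified fusion of the cytosine deaminase APOBEC1 with a nanobody (Apo1-Nb) is led by an antibody to the protein of interest, and Cs of nearby RNA are converted to U. All 6 libraries came from methanol-fixed HEK293T cells, a human embryonic kidney line that carries the SV40 large T antigen, named HEK293XT in the cell line entry of the labels. The RBFOX2-INSCRIBE libraries (replicates 1 and 2) received a rabbit anti-RBFOX2 antibody and Apo1-Nb, the enzyme-only libraries (replicates 2 and 3 by their titles) received Apo1-Nb without the antibody, and the buffer-only libraries (replicates 1 and 2) received neither. Each library was full-length cDNA of rRNA-depleted total RNA, sequenced on a PacBio Revio. The labels do not say that replicates were separate cultures, so the p-values below measure the spread between these libraries. No library was directed at TDP-43. The files hold edit fractions and no expression levels, so the cell line could not be checked against marker genes.

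NUCKS1 encodes a chromatin-associated nuclear phosphoprotein, a substrate of casein kinase and of cyclin-dependent kinases, which is related in sequence to RAD51AP1 and is known for its part in homologous recombination repair. RBFOX2 is a splicing regulator whose RNA-recognition motif binds UGCAUG. TDP-43, encoded by TARDBP, binds UG-rich RNA, and NUCKS1 was named by the study among its targets. APOBEC1, known for editing apolipoprotein B mRNA, prefers a C that follows A or U.

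The isoform has 7 exons and 6399 nt, of which 209 nt are 5′ UTR, 732 nt coding sequence and 5458 nt 3′ UTR. The last exon (chr1:205712822-205718479) holds the whole 3′ UTR. UGCAUG occurs at 1 place in the spliced isoform, at position 3290, and UGUGUG, used here as the TDP-43 motif, at 7 places, all in the 3′ UTR. Positions are counted from the first base of the isoform. The windows below show these motifs (capitals) on the strand of the RNA, written as DNA and read from hg38, because the motif counts and profiles that follow are centred on them.

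RBFOX2 motif at 3290 (chr1:205715918-205715939, minus strand): tcaaatcaTGCATGcaaatagg
TDP-43 motif at 2360 (chr1:205716848-205716869, minus strand): aggaggccTGTGTGcagttgaa
TDP-43 motif at 2650 (chr1:205716558-205716579, minus strand): tattgcacTGTGTGttaaagaa
TDP-43 motif at 3097 (chr1:205716111-205716132, minus strand): agattactTGTGTGcatttgat
TDP-43 motif at 4847 (chr1:205714361-205714382, minus strand): gcatgcttTGTGTGgctggtag
TDP-43 motif at 5032 (chr1:205714176-205714197, minus strand): tgaagtatTGTGTGggtgtgta
TDP-43 motif at 5054 (chr1:205714154-205714175, minus strand): cgtgtgagTGTGTGtttgtata
TDP-43 motif at 6031 (chr1:205713177-205713198, minus strand): aacccagaTGTGTGctctgtgt

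Both motifs were searched on the RNA strand of the isoform. In the most edited isoform of every gene, UGUGUG was held by 3.97% of 100-nt windows and UGCAUG by 2.51%. In NUCKS1 they were held by 5 and by 1 of 63 such windows.

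All 1381 NUCKS1 edits lay in an exon, at a C of the isoform and on its strand. The number of edited Cs, out of 1147 Cs, was 296 and 333 in RBFOX2-INSCRIBE replicates 1 and 2. It was 124 and 277 in enzyme-only replicates 2 and 3. It was 158 and 193 in buffer-only replicates 1 and 2. Both RBFOX2-INSCRIBE libraries were above all 4 controls, and the enzyme-only libraries lay on both sides of the buffer-only libraries. The means were 314.5 ± 26.2 (SD, n = 2) for RBFOX2-INSCRIBE, 200.5 ± 108 for enzyme-only and 175.5 ± 24.7 for buffer-only. The share of its Cs that was edited placed NUCKS1 above 96.6% to 99.3% of the 4920 genes that averaged 5 or more edited Cs, buffer-only libraries included. The gene was chosen partly for its many edited sites in every library, so this high rank follows from the choice.

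The edit fraction of a C, taken as the share of reads that carry the edit there, was low in NUCKS1. Its median was 0.0880% and 0.0972% in RBFOX2-INSCRIBE, 0.118% and 0.0882% in enzyme-only, and 0.0395% and 0.0367% in buffer-only. RBFOX2-INSCRIBE and enzyme-only overlapped and both lay above buffer-only (exact permutation test, 2-sided, p = 0.33 for each against buffer-only, which is the smallest p that 2 libraries against 2 can give). These medians cover listed edits only. The lower quartile was 0.0588% in enzyme-only replicate 2, beside 0.0374% to 0.0429% in the other libraries with Apo1-Nb. The part of its few low fractions in its median was not tested. Over all listed edits the library medians ran from 0.521% to 0.763%. Only 3 NUCKS1 edits over all libraries reached 2%, 1 in enzyme-only replicate 3 and 2 in buffer-only replicate 2. The read depth behind a fraction is unknown, so no interval could be given for a single site.

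Adding up the edit fractions of all edited Cs gave a measure that weighs each C by how much of it was edited. This summed edit fraction was 50.8 and 52.9 percentage points in RBFOX2-INSCRIBE, 23.4 and 45.0 in enzyme-only, and 9.52 and 19.9 in buffer-only. The groups did not overlap in any of the 3 comparisons, and RBFOX2-INSCRIBE was 1.51 times enzyme-only and 3.53 times buffer-only in its mean. Each difference had the smallest exact permutation p of 0.33. Most genes shifted alike. On the log2 scale RBFOX2-INSCRIBE was 0.67 above enzyme-only, where the median gene had 0.62. It was 1.91 above buffer-only, where the median gene had 1.64. NUCKS1 lay above 53.2% and 59.4% of genes in these 2 comparisons. Per C of the isoform, the summed fraction placed NUCKS1 above 18.0% to 57.2% of the 4920 genes.

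**Figure D1:**
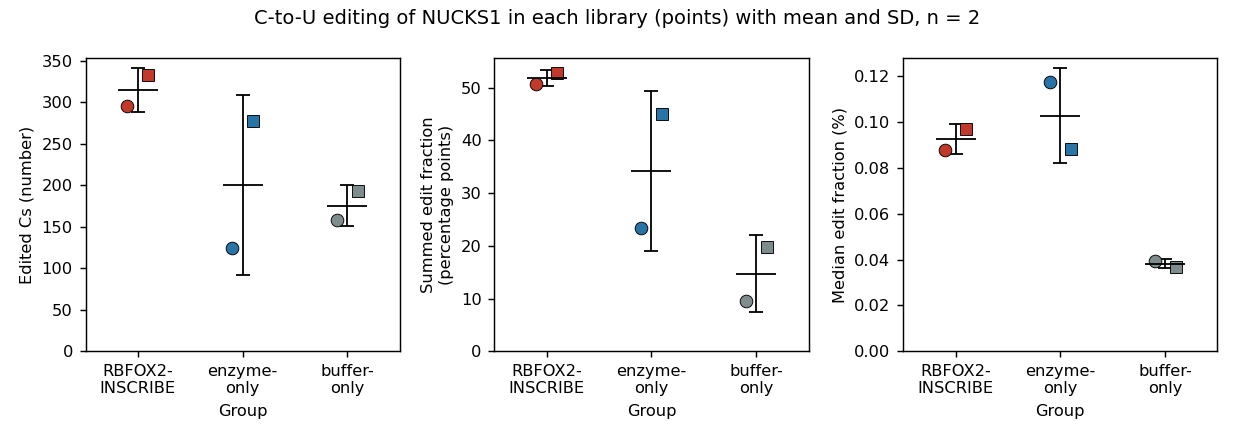
Points are the libraries of each group (x axis), bars the mean and SD (n = 2) of the number of edited Cs (left), the summed edit fraction in percentage points (middle) and the median edit fraction in percent (right). Both RBFOX2-INSCRIBE libraries sit above the controls in the left and middle panels, while enzyme-only replicates 2 and 3 sit far apart at 124 and 277 edited Cs.

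The share of edited Cs was compared between groups with limma over all genes, on log2 of edited Cs plus 0.5 per C of the gene. Against enzyme-only, NUCKS1 was 0.76 higher in RBFOX2-INSCRIBE on the log2 scale (SE 0.57, limma adjusted p = 0.43, not past the threshold of 0.05). The median gene differed by 0.83, and 0.0193% of genes were called in this comparison. The value rested on the enzyme-only library used: it was 1.34 (adjusted p = 0.0278) without replicate 3 and 0.18 (adjusted p = 0.71) without replicate 2. In these fits the lone enzyme-only library is assumed to vary like the RBFOX2-INSCRIBE libraries. The shift was shared by most genes: without replicate 3 the median gene was 1.27 higher and 1637 of 5220 genes were called, and without replicate 2 the median was 0.34 and none was called, with 607 at an unadjusted p under 0.05.

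Against buffer-only, NUCKS1 rose by 0.84 on the log2 scale in RBFOX2-INSCRIBE (SE 0.16, limma adjusted p = 0.00412). This was less than in most genes: the median gene rose by 1.45, NUCKS1 lay above 25.7% of genes, and 58% of genes were called. With edited Cs scaled to the same total in each library, which brought the median gene to 0.09, the sign turned and the NUCKS1 difference was -0.57 (adjusted p = 0.090). Without RBFOX2-INSCRIBE replicate 1 or replicate 2 the adjusted p was 0.16 and 0.18, in fits that take the lone library to vary like buffer-only and call no gene, with 1778 and 1761 at an unadjusted p under 0.05. In a fit over all 3 groups it was 0.14. Enzyme-only differed from buffer-only by 0.09 (SE 0.54, limma adjusted p = 0.96), where 0.573% of genes were called. The isoform gave the same 3 log2 differences, since it is the only listed isoform of the gene.

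The difference from buffer-only was wider among edits of higher fraction. When only Cs edited to 0.2% or more were counted, the isoform had 94 and 78 of them in RBFOX2-INSCRIBE. It had 27 and 64 in enzyme-only, and 3 and 18 in buffer-only. On this count NUCKS1 rose by 3.42 on the log2 scale against buffer-only (SE 0.72, limma adjusted p = 0.00712), above 97.0% of genes, whose median was 1.53. Of 4916 genes, 2805 were called in this comparison. Enzyme-only was 2.39 higher than buffer-only (SE 0.74, limma adjusted p = 0.074), and RBFOX2-INSCRIBE was 1.03 higher than enzyme-only (SE 0.60, limma adjusted p = 0.39). The fraction limit was chosen after the values were seen. It also acts unequally between genes. The library medians of NUCKS1, 0.0367% to 0.118%, lay below the limit, while those over all listed edits, 0.521% to 0.763%, lay above it. With the limit the median gene moved only from 1.45 to 1.53, so the high rank of NUCKS1 is not comparable with its rank without the limit. The limit acts unequally between libraries as well. In the bins from position 501 to 1500 (profile below), the lowest listed fraction was 0.251% to 0.262% in RBFOX2-INSCRIBE replicate 1. Across all other libraries it was 0.172% to 0.197%. Every edit listed there in RBFOX2-INSCRIBE replicate 1 therefore passed the limit, while the lowest edits of the other libraries did not. The part of these inequalities in the difference was not tested.

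Most edited Cs lay in the 3′ UTR, which holds 83.6% of the Cs of the isoform and where much lower fractions were listed than in the coding sequence (values below). Of the Cs edited in RBFOX2-INSCRIBE, 96.3% and 96.1% lay there, beside 91.1% and 93.5% in enzyme-only and 94.3% in both buffer-only libraries. RBFOX2-INSCRIBE lay above both control groups, by 3.87 percentage points over enzyme-only, with the smallest exact permutation p of 0.33. From 2251 to 6000, within the 3′ UTR, the lowest fraction of enzyme-only replicate 2 was 1.68 to 5.05 times the median of the other 5 libraries. The part of this limit in its 3′ UTR share was not tested. Among Cs edited to 0.2% or more, the mean 3′ UTR share was 90.9% in RBFOX2-INSCRIBE, 75.8% in enzyme-only and 55.6% in buffer-only, below the share of all Cs in both controls. The buffer-only mean averages libraries with only 3 and 18 such Cs, too few to show a depletion from the 3′ UTR. Of the summed edit fraction the 3′ UTR held a mean of 92.5%, 89.4% and 82.3%. The coding sequence, with 137 Cs, had 8 and 10 edited Cs in RBFOX2-INSCRIBE, 10 and 18 in enzyme-only and 9 in both buffer-only libraries. The 5′ UTR had at most 3 of its 51 Cs edited in any library. In the coding sequence, between 3 and 10 of the edited Cs of a library would change an amino acid if read as U, and 1 or 2 would give a stop codon.

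Along the isoform, the summed edit fraction of RBFOX2-INSCRIBE was high around the single UGCAUG. In the 250-nt bin from position 3251, which holds the motif, it was 5.49 and 7.53 percentage points in RBFOX2-INSCRIBE. It was 0.987 and 2.78 in enzyme-only, and 0.734 and 1.21 in buffer-only. This was the highest bin of RBFOX2-INSCRIBE replicate 2, while replicate 1 was highest in the bin from 2751, at 5.86. Enzyme-only replicate 3 was highest in the bin from 2251, at 4.73, and enzyme-only replicate 2 in the bin from 2001, at 4.69. The latter value came from 3 edited Cs, none listed below 1.52%. In the bin with the motif the lowest fraction of that library was 0.121%, so its heights are not comparable between these bins.

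The 4 bins from 2751 to 3750 (chr1:205715471-205716470) formed the longest stretch in which neither enzyme-only library reached either RBFOX2-INSCRIBE library in summed edit fraction. The stretch was picked from the profile and carries no test. It holds 16.7% of the Cs of the isoform. It held 37.4% and 33.4% of the summed edit fraction in RBFOX2-INSCRIBE, 15.9% and 19.0% in enzyme-only, and 24.6% and 17.3% in buffer-only. Its edited Cs numbered 103 and 98 in RBFOX2-INSCRIBE, 20 and 66 in enzyme-only and 34 and 49 in buffer-only.

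Of the 24 NUCKS1 bins that averaged 2 or more edited Cs, both RBFOX2-INSCRIBE libraries were above both enzyme-only libraries in number of edited Cs in 11, below in 1 and overlapping in 12. Over all genes, taking the most edited isoform of each, 39.3% of such bins were higher and 2.65% lower. By summed edit fraction, 9 NUCKS1 bins were higher and 1 was lower, where 38.9% and 7.04% of all bins were. Against buffer-only, 14 of 24 bins were higher by number of edited Cs, with 67.8% of all bins higher, and 19 of 24 by summed edit fraction, with 73.3% of all bins higher. The share of NUCKS1 bins that were higher was thus near that over all genes.

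**Figure D2:**
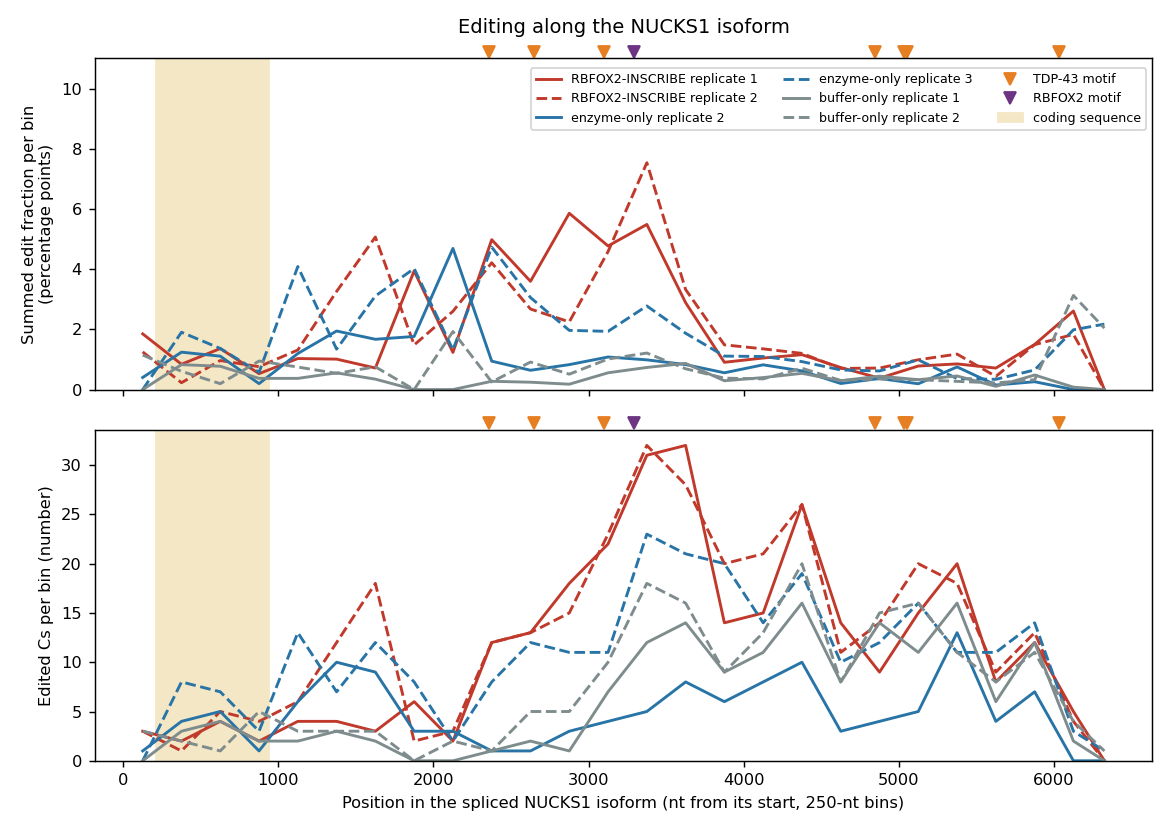
Summed edit fraction in percentage points (top) and number of edited Cs (bottom) in 250-nt bins along the spliced isoform (x axis, nt), 1 line for each library, with the coding sequence shaded and motifs marked by triangles. Both RBFOX2-INSCRIBE lines stand above the controls from 2751 to 3750, a stretch that holds the RBFOX2 motif and 1 TDP-43 motif, and the groups come closer toward the 3′ end.

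The lowest edit fraction listed in a bin changed strongly with position, in much the same way in the 3 groups. It lay between 0.172% and 0.278% in the 3 bins from 251 to 1000, which hold most of the coding sequence. It was 0.490% to 1.52% in the bin from 2001, in the 5 libraries with an edit there, and then fell along the 3′ UTR to 0.0169% to 0.0301% in the bin from 5501. In the bin with the UGCAUG the lowest listed fraction was 0.0472% and 0.0403% in RBFOX2-INSCRIBE, 0.121% and 0.0515% in enzyme-only and 0.0419% and 0.0433% in buffer-only. Enzyme-only replicate 2 stood apart: over the 15 bins from 2251 to 6000 its lowest fraction was 1.68 to 5.05 times the median of the other 5 libraries. This library also had the fewest edited Cs, and the part of this limit in its counts was not tested. Numbers of edited Cs are therefore best compared between libraries at the same position. The 3′ UTR share above and the motif window ratios below set positions against each other within a library. They carry this limit.

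**Figure D3:**
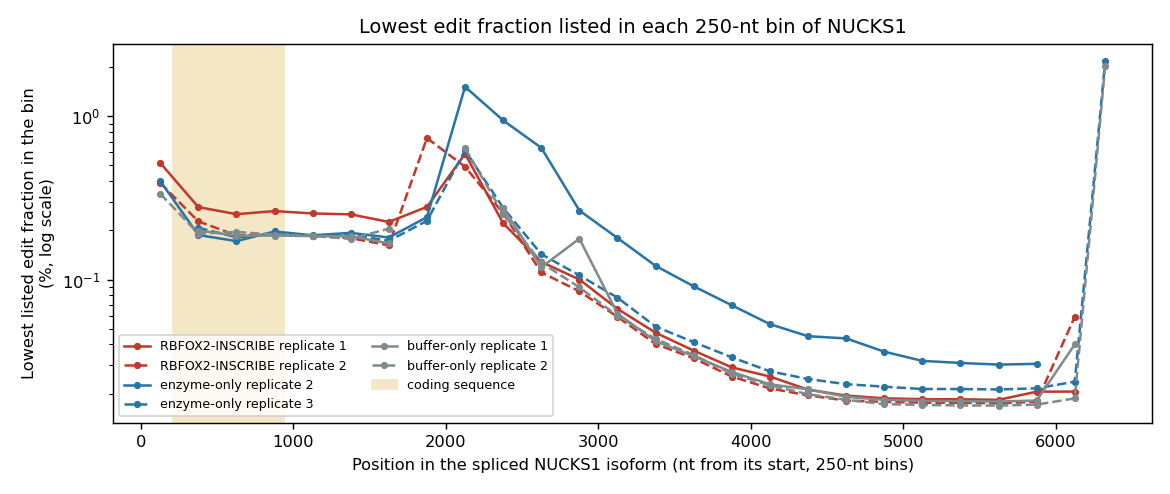
Lowest edit fraction listed in each 250-nt bin (y axis, percent, log scale) along the isoform (x axis, nt), 1 line for each library. The lines fall together along the 3′ UTR, and enzyme-only replicate 2 stays above the other 5 libraries from 2251 on, while no fraction was listed for it in the last bins.

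Within 50 nt of the UGCAUG lie 23 Cs, and RBFOX2-INSCRIBE edited more of them than either control. The number edited was 16 and 14 in RBFOX2-INSCRIBE. It was 2 and 8 in enzyme-only, and 3 and 8 in buffer-only. Relative to the share of all Cs that lie in the window, the share of edited Cs there was 2.70 and 2.10 in RBFOX2-INSCRIBE, 0.804 and 1.44 in enzyme-only and 0.947 and 2.07 in buffer-only. RBFOX2-INSCRIBE did not overlap either control group, with the smallest exact permutation p of 0.33 against each.

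The contrast was wider by summed edit fraction. The window held 3.63 and 4.57 percentage points in RBFOX2-INSCRIBE. It held 0.472 and 1.49 in enzyme-only, and 0.223 and 0.702 in buffer-only. The mean of RBFOX2-INSCRIBE was 4.17 times that of enzyme-only and 8.86 times that of buffer-only (exact permutation p = 0.33 for each), where over the whole isoform it was 1.51 and 3.53 times. As a share of the summed edit fraction of the isoform, the window held 7.14% and 8.64% in RBFOX2-INSCRIBE, 2.01% and 3.32% in enzyme-only and 2.34% and 3.53% in buffer-only. Windows of this kind were commonly higher: of 1067 UGCAUG windows that averaged 2 or more edited Cs, 70.5% had both RBFOX2-INSCRIBE libraries above both enzyme-only libraries in summed edit fraction, and 67.1% in number of edited Cs. Against buffer-only these shares were 91.4% and 87.9%.

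Of the 20 Cs edited within 50 nt of the UGCAUG in any library, 13 were edited in both RBFOX2-INSCRIBE libraries, 11 of them after A or U. None was edited in both enzyme-only libraries, of which replicate 2 had 2 edits there, and 1 was edited in both buffer-only libraries. In the bin with the motif, enzyme-only replicate 2 listed no fraction below 0.121%. Some of the 13 Cs had lower fractions in RBFOX2-INSCRIBE, such as 0.0631% and 0.0567% at 3280. The part of this limit in the enzyme-only count was not tested, and such counts over other UGCAUG windows were not computed. The C at 3320 (chr1, position 205715901), 25 nt after the motif, had edit fractions of 0.713% and 0.738% in RBFOX2-INSCRIBE, was unlisted in enzyme-only replicate 2 and buffer-only replicate 1, and had 0.336% in enzyme-only replicate 3 and 0.0548% in buffer-only replicate 2. The C at 3268 (205715953), 22 nt before the motif, had 0.574% and 0.742% in RBFOX2-INSCRIBE, 0.287% in enzyme-only replicate 3 and 0.0588% in buffer-only replicate 2. Both Cs follow A, and the highest fraction in the window was 0.869%, at 3332 in RBFOX2-INSCRIBE replicate 2. Their surroundings are shown with the edited C in capitals.

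C at 3268 (chr1:205715946-205715960, minus strand): taaaacaCtctagtc
C at 3320 (chr1:205715894-205715908, minus strand): gtggtgaCtcaactg

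**Figure D4:**
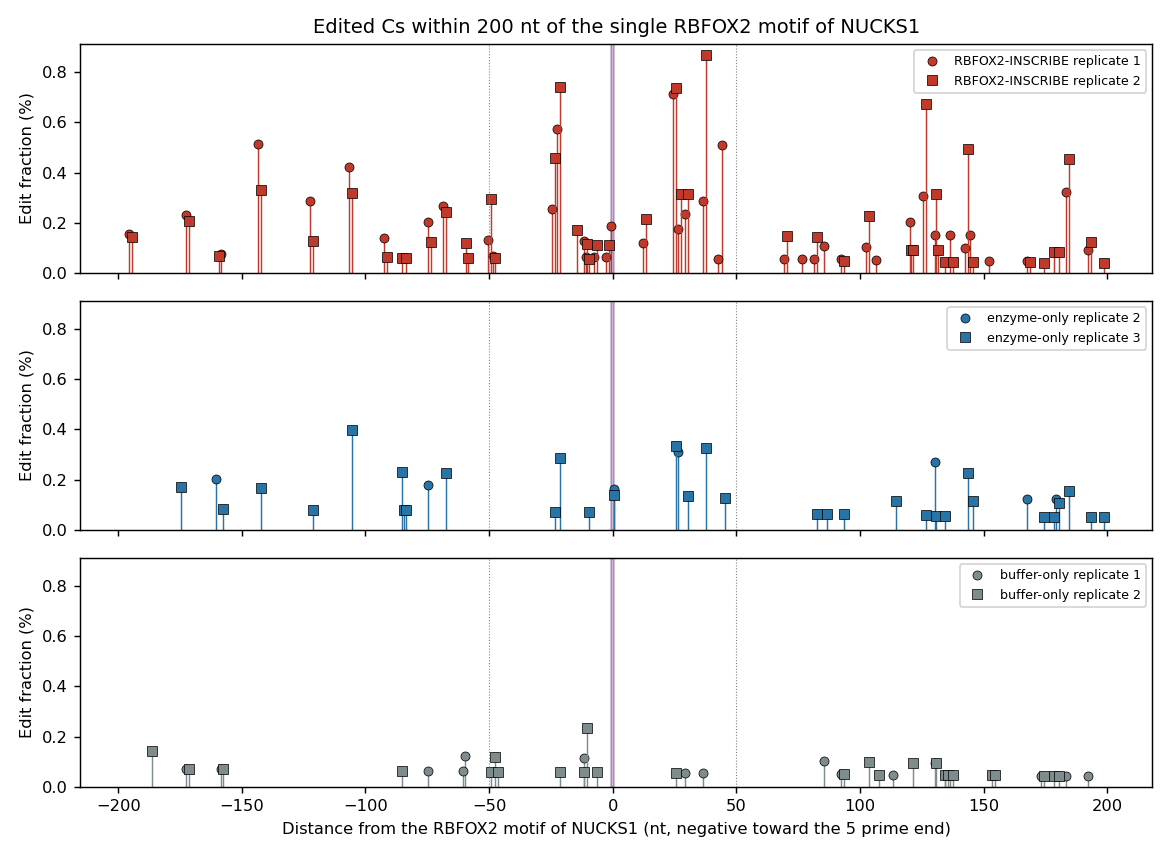
Edit fraction in percent (y axis) of each edited C within 200 nt of the RBFOX2 motif (x axis, distance in nt), 1 panel for each group and 1 marker shape for each library, with dotted lines at 50 nt and the motif shaded. In RBFOX2-INSCRIBE the tallest points flank the motif at 22 nt before and 25 and 37 nt after it, up to 0.869%, whereas no control point within 50 nt is above 0.336%.

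The 7 UGUGUG windows showed a smaller contrast. Together they hold 105 Cs, and 33 and 35 of these were edited in RBFOX2-INSCRIBE. In enzyme-only 5 and 23 were edited, and in buffer-only 15 and 21. Relative to the share of all Cs in the windows, RBFOX2-INSCRIBE had 1.22 and 1.15 times the edited Cs, enzyme-only 0.440 and 0.907 times and buffer-only 1.04 and 1.19 times. RBFOX2-INSCRIBE lay above enzyme-only with the smallest exact permutation p of 0.33, and it overlapped buffer-only (exact permutation p = 0.67). The summed edit fraction in the windows was 6.61 and 7.05 percentage points in RBFOX2-INSCRIBE, 1.73 and 5.58 in enzyme-only and 0.942 and 1.19 in buffer-only, where the mean of RBFOX2-INSCRIBE was 1.87 times that of enzyme-only.

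The windows at 5032 and 5054 overlap, so they share edited Cs. The UGUGUG window at 3097 lies closest to the UGCAUG, and it held 1.81 and 2.16 percentage points in RBFOX2-INSCRIBE, 0.645 and 0.420 in enzyme-only and 0.222 and 0.359 in buffer-only. The window at 6031 held 1.78 and 1.83 in RBFOX2-INSCRIBE, 0.995 in enzyme-only replicate 3, no listed edit in enzyme-only replicate 2, and 0.0801 and 0.0748 in buffer-only. In the windows at 2360, 2650 and 4847 the RBFOX2-INSCRIBE and enzyme-only libraries overlapped in summed edit fraction. In 4 of the 7 windows, therefore, both RBFOX2-INSCRIBE libraries were above both enzyme-only libraries, where 42.1% of 1379 UGUGUG windows over all genes were.

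The base before the edited C differed between libraries with and without Apo1-Nb. Of all Cs of the isoform, 56.5% follow A or U. Among edited Cs the share was 62.8% and 67.6% in RBFOX2-INSCRIBE. It was 56.5% and 59.6% in enzyme-only, and 41.1% and 43.0% in buffer-only. The groups did not overlap, in the order RBFOX2-INSCRIBE, enzyme-only, buffer-only, with the smallest exact permutation p of 0.33 in each comparison. Weighted by edit fraction, the share after A or U was 79.4% and 86.2% in RBFOX2-INSCRIBE, 66.7% and 72.1% in enzyme-only and 40.2% and 53.5% in buffer-only. In buffer-only, 32.9% and 29.0% of edited Cs followed G, against 21.0% of all Cs.

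**Figure D5:**
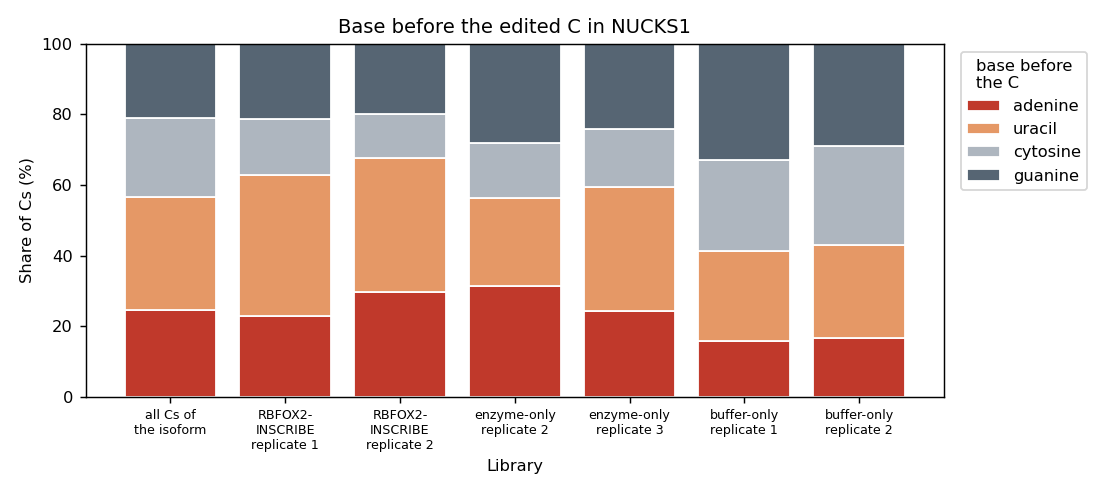
Share of Cs in percent (y axis) that follow each base, for all Cs of the isoform and for the edited Cs of each library (x axis). The 2 lower segments together, adenine and uracil, reach 62.8% and 67.6% in RBFOX2-INSCRIBE and 41.1% and 43.0% in buffer-only.

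Of the 586 edited Cs, 208 were listed in 1 library, 128 in 2, 122 in 3, 89 in 4 and 39 in 5. None was listed in all 6, since positions edited in every sample had been removed as variants. The RBFOX2-INSCRIBE replicates shared 194 edited Cs, 65.5% and 58.3% of their lists, where over all isoforms they shared 23.8% and 23.2%. The enzyme-only replicates shared 40, 32.3% and 14.4% of their lists, where over all isoforms they shared 12.5% and 6.97%. The buffer-only replicates shared 82, 51.9% and 42.5%, where over all isoforms they shared 8.39% and 8.55%. The share in NUCKS1 was thus above that over all isoforms in each group, buffer-only included. The gene was chosen partly for its many edited sites. Of its Cs, 10.8% to 29.0% were edited in a library, against 1.06% to 2.99% in the median gene. Lists that cover more of the Cs share more of them, so the higher share follows at least partly from the choice. Of the 194 Cs edited in both RBFOX2-INSCRIBE libraries, 30 were edited in no control, all in the 3′ UTR and 23 of them after A or U. Between 2751 and 3750, a stretch picked for its higher summed edit fraction in RBFOX2-INSCRIBE, lay 16 of the 30. Sites found in both libraries of a group and in no other group numbered 12 of 40 for enzyme-only and 5 of 82 for buffer-only. The share of such sites over all isoforms was not computed.

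All 39 Cs listed in 5 libraries were present in both buffer-only libraries, and 25 were missing from enzyme-only replicate 2. The 5 with the highest mean fraction are shown with the edited C in capitals, because they were the sites seen most often.

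C at 3513 (chr1:205715701-205715715, minus strand): acgttaaCtttgaag
C at 5976 (chr1:205713238-205713252, minus strand): ttgtaaaCttttttt
C at 5946 (chr1:205713268-205713282, minus strand): agttattCtttttct
C at 4777 (chr1:205714437-205714451, minus strand): tgggaaaCatcccgt
C at 5792 (chr1:205713422-205713436, minus strand): tccaggaCtgcgtgt

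At 3513 the edit fraction was 0.223% and 0.549% in RBFOX2-INSCRIBE, 0.114% in enzyme-only replicate 2 and 0.0405% and 0.0408% in buffer-only. At 5976 it was 0.267% and 0.355% in RBFOX2-INSCRIBE, 0.0237% in enzyme-only replicate 3 and 0.0600% and 0.0187% in buffer-only. At 5946 it was 0.226% and 0.197% in RBFOX2-INSCRIBE, 0.0946% in enzyme-only replicate 3 and 0.0800% and 0.0374% in buffer-only. At these 3 sites, and at 5792 with 0.242% and 0.160%, both RBFOX2-INSCRIBE libraries were above every listed control value. The C at 4777 differed: its highest value, 0.185%, was in enzyme-only replicate 2, and it was unlisted in RBFOX2-INSCRIBE replicate 1. The sites shown were picked by their mean fraction over the libraries, which includes the RBFOX2-INSCRIBE values. High values in that group therefore follow partly from the choice. How many of the other Cs listed as often had both RBFOX2-INSCRIBE libraries highest was not computed.

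The 5 sites with the highest mean fraction over the 6 libraries (2189, 1930, 6297, 2217 and 6207) were each listed in only 1 or 2 libraries. Their fractions reached 2.17% at 6297 in enzyme-only replicate 3 and 2.04% at 6207 in buffer-only replicate 2. The 3 between 1751 and 2250 lie where the lowest listed fractions were high, and the other 2 lie within the last 200 nt of the isoform.

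Other TDP-43 targets named by the study, TARDBP and XPO1, were read in the same way. TARDBP had 222 and 195 edited Cs in RBFOX2-INSCRIBE, 65 and 134 in enzyme-only and 65 and 81 in buffer-only. XPO1, the nuclear export receptor, had 27 and 24, 8 and 14, and 8 and 4. Neither passed the limma test against enzyme-only (log2 differences of 1.15 and 1.23, adjusted p of 0.30 and 0.35), and both rose against buffer-only, by 1.51 and 2.07, a comparison in which 58% of all genes were called and NUCKS1 rose by 0.84. With edited Cs scaled to the same total, the differences from buffer-only were 0.10 and 0.72 and neither was called (limma adjusted p of 0.75 and 0.38). Both comparisons use the same RBFOX2-INSCRIBE libraries.

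NUCKS1 was next set beside genes of its known biology. Of 18 homologous recombination genes, 13 were tested against enzyme-only with limma and none was called, also at an unadjusted p under 0.05, with a median log2 difference of 0.89. Against buffer-only 5 of 12 tested genes rose and none fell (MRE11, RBBP8, RAD51C, RAD51AP1 and BARD1), with a median of 1.44 where the median gene had 1.45 and 58% of all genes were called. RAD51AP1, which acts in homologous recombination and resembles NUCKS1 in sequence, rose by 1.97 (SE 0.32, limma adjusted p = 0.00228), with 64 and 61 edited Cs in RBFOX2-INSCRIBE, 22 and 38 in enzyme-only and 11 and 22 in buffer-only. Of 10 casein kinase 2, cyclin-dependent kinase and cyclin genes, none of 6 tested was called against enzyme-only, with 0 at an unadjusted p under 0.05, and 5 of 6 rose against buffer-only, with a median of 1.55, beside the same 58% of all genes. CDK1, the mitotic kinase, rose by 2.28 and CSNK2A1, a catalytic subunit of casein kinase 2, by 1.65. Between enzyme-only and buffer-only limma called none of 10 and none of 5 tested genes, with 1 gene of each list at an unadjusted p under 0.05. With edited Cs scaled to the same total, no gene of either list was called in any comparison, and against buffer-only 2 and 1 had an unadjusted p under 0.05.

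The genes most like NUCKS1 across the 6 libraries, by Euclidean distance of the log2 share of edited Cs after each library was centred on its median, included CCT6A, PTGES3, HSPA8 and CMAS among 4920 genes. The distances of these genes ran from 0.406 for CCT6A, a chaperonin subunit, to 0.465 for CMAS, which activates sialic acid. HSPA8, a constitutive chaperone of the HSP70 family, had 165 and 147 edited Cs of 527 in RBFOX2-INSCRIBE, 51 and 145 in enzyme-only and 73 and 74 in buffer-only.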

How the data were processed

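Per the labels and the study's methods, the authors made consensus reads, aligned them to hg38 with pbmm2, assigned them to isoforms with IsoQuant, used uniquely assigned reads of quality 20 or more on the right strand, removed dbSNP positions and edits found in all samples, and deposited the edit fraction of each isoform position, taken here as edited over total reads. No read counts were used here, so depth is unknown and fractions carry no interval. Edits were assigned to genes with GENCODE 44 (at least 99.7% of each library matched), and 78193 to 216078 matched edits per library entered.

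Distinct edited Cs plus 0.5, per C of the gene or isoform, were compared on the log2 scale with limma (R 4.3.3, limma 3.58.1) in features whose mean number of edited Cs was 5 or more, only the 2 groups compared entering a fit, with Benjamini-Hochberg adjustment over all features. The scripts were tested on simulated data. Single values were compared by 2-sided exact permutation tests over libraries. The gene, gene lists, motifs and alternatives were chosen with earlier results of these data known. Sites were named when found in the most libraries (5 sites), highest in mean fraction (5 sites) or near a motif, and similar genes by distance (5 genes). Some genes these rules name are not reported here. Alternatives covered pseudocounts, filters, scaling, fraction limits, motif windows, replicate blocks and each library left out. Enzyme-only replicates are 2 and 3 in the titles but 1 and 2 in another label.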

Additional observations from a re-analysis of the deposited data

How the results depend on the processing

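Of 147 recomputed values, 111 kept their direction and side of the threshold or moved by less than the spread between replicates. This count does not measure robustness, because many of the values could not move. NUCKS1 had 1 isoform and 0 edits on the opposite strand, so the isoform and strand alternatives gave the same NUCKS1 differences. Leaving out a buffer-only library could not change a difference between RBFOX2-INSCRIBE and enzyme-only. Log2 differences are given for the gene, and the isoform followed the same pattern. With edited Cs scaled to the same total, the differences turned: -0.043 (isoform -0.054) for RBFOX2-INSCRIBE against enzyme-only, -0.57 (isoform -0.59) for RBFOX2-INSCRIBE against buffer-only and -0.53 (isoform -0.53) for enzyme-only against buffer-only. RBFOX2-INSCRIBE against buffer-only kept 0.84 but lost its call in the fit with all 3 groups (adjusted p = 0.14), under a replicate block by the replicate label (0.12) and without limma's trend and robust settings (0.069). By summed edit fraction it was 1.91 (adjusted p = 0.054), where the median gene had 1.64. This alternative, the 0.2% fraction limit and the 200-nt window were chosen after seeing the data.

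Leaving out each library in turn gave 0.18 to 1.34 for RBFOX2-INSCRIBE against enzyme-only, 0.70 to 0.99 against buffer-only and -0.49 to 0.66 for enzyme-only against buffer-only, which turned without enzyme-only replicate 3 (-0.49) or buffer-only replicate 1 (-0.06). Differences of RBFOX2-INSCRIBE minus enzyme-only ranged from 0.28 to 0.74 for the UGUGUG ratio, 0.96 to 1.59 for the UGCAUG ratio, 2.69 to 5.06 percentage points for the 3′ UTR share, -0.025 to 0.0044 percentage points for the median fraction and 4.83 to 9.56 for the share after A or U.

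Replicate differences, the second library minus the first in listed order, correlated between groups at r of 0.12, 0.04 and -0.02 over 4920 genes. For enzyme-only this set replicates 3 and 2 against replicates 2 and 1 of the other groups. It therefore cannot check pairing by title number for enzyme-only. RBFOX2-INSCRIBE and buffer-only, both numbered 1 and 2, gave the r of 0.04. A replicate block by title number gave 1.45 (adjusted p = 0.032) for RBFOX2-INSCRIBE against enzyme-only and -0.61 (0.27) for enzyme-only against buffer-only, a fit in which enzyme-only replicate 3 has a number of its own. In the former comparison that fit called 1200 of 5190 genes, with a median gene of 1.28, where 1 gene was called without the block.

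The UGCAUG ratio difference was 1.27, and became 0.79 within 200 nt, 2.06 at fractions of at least 0.2% and 2.61 by summed edit fraction. For sites found in both libraries of a group it was 3.34, which is the RBFOX2-INSCRIBE ratio itself, since no such site lay in the window in enzyme-only. The UGUGUG difference of 0.51 became 0.91 for sites found in both libraries. At fractions of at least 0.2% the 3′ UTR share difference of 3.87 percentage points became 15.1, and that of the share after A or U, 7.19, became 16.4 (13.5 by summed edit fraction). The cause was not tested. A limit of 2% left too few NUCKS1 edits for any value. With 2 libraries a group and unknown depth, exact tests could not go below p = 0.33.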
